A study of Mus musculus with 126 samples.

Results

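RNA of 5 genes of the DNA methylation machinery was examined in mouse embryonic stem (ES) cells: the DNA methyltransferase genes Dnmt1, Dnmt3a and Dnmt3b, their non-catalytic relative Dnmt3l, and Uhrf1. The 5 genes were found by exact symbol among the 23420 genes of the deposited count table; the rule uses no measured value, although the names were listed with earlier results of these data known. All 5 passed the filter on low counts. The study asks how DNA methylation and histone acetylation each bear on where transcription factors bind, and its RNA-seq arm comprises 8 of its 126 samples. All cells were of strain J1 and were cultured on gelatin in serum medium that held leukaemia inhibitory factor. Wild type cells and triple knockout cells (TKO; Dnmt1-/-, Dnmt3a-/-, Dnmt3b-/-) were each given either Trichostatin A (TSA, an inhibitor of histone deacetylases; labelled dose 5 ng/µl) or the solvent DMSO alone (0.0033%) for 36 h. Each of the 4 groups had 2 libraries of ribosome-depleted total RNA. The labels do not say which exons were targeted or whether the TKO cells are a single clone.

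Dnmt1 copies methylation onto the new DNA strand after replication, and Uhrf1 is the protein that binds hemimethylated CpG sites and brings Dnmt1 to them. Dnmt3a and Dnmt3b place methylation at sites that had none, and Dnmt3l, which has no catalytic activity of its own, binds both and stimulates them. Dnmt3l is known for its expression in germ cells and ES cells. Knockout of Dnmt1, Dnmt3a and Dnmt3b leaves ES cells that still grow but carry almost no CpG methylation. Neither Dnmt3l nor Uhrf1 was targeted in these cells.

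Total counts per library lay between 13280631 and 15542527, so 3 counts correspond to 0.193 to 0.226 CPM, that is, counts relative to the library total. Such floors cover counting error only. Of 8 ES cell markers, none was at 0 in any group. Their summed level, in CPM on library totals, was 3124 to 3465 in wild type cells with DMSO and 2057 to 2279 under TSA. TKO cells had 3897 to 4288 with DMSO and 1957 to 2261 under TSA. Other than sums of markers, levels below are normalised CPM (CPM after scaling of the libraries by the trimmed mean method, TMM), given as mean ± SD of 2 libraries. Only per-length values (TPM, which divides by exon length) are used to compare one gene with another. A gene was called when edgeR's quasi-likelihood p, adjusted by Benjamini-Hochberg over 15822 genes, was below 0.05. The replicates are biological per the series' design text, but the labels name no separate cultures or clones, so p-values measure only the spread between these libraries.

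**Figure D1:**
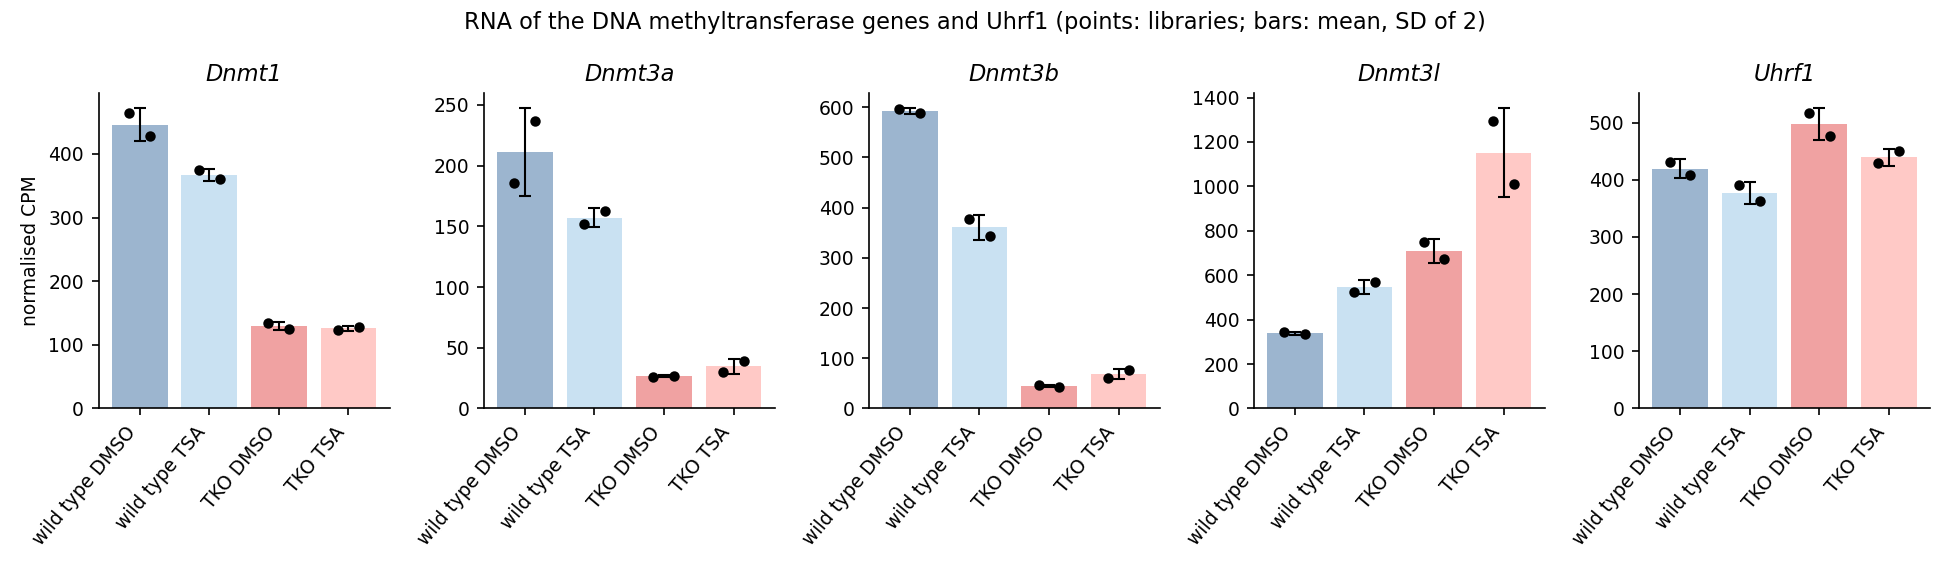
Normalised CPM (vertical axes, each with its own scale from 0) of the 5 genes in the 4 groups; points are libraries, bars are means and error bars are the SD of 2 libraries. Dnmt3l stood higher in every TSA or TKO library than in the wild type DMSO libraries, Dnmt1, Dnmt3a and Dnmt3b were low but present in all 4 TKO libraries, and Uhrf1 stayed between 363 and 516 normalised CPM in all 8 libraries.

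The 3 targeted genes were all lower in TKO cells, and all 3 still gave reads there. Of the 5 genes, 4 were called between TKO and wild type in DMSO (3 lower, Dnmt3l higher), where 20.4% of all genes tested were called. The targeted genes also kept different amounts of RNA, with Dnmt1 keeping the most and Dnmt3b the least of its wild type level.

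Dnmt1 (chr9:20907206-20959888, minus strand) was at 464 and 428 normalised CPM in the wild type libraries with DMSO and at 374 and 360 under TSA, against 135 and 126 with DMSO and 123 and 128 under TSA in TKO cells. Every TKO library lay below every wild type library, and the TKO groups overlapped each other. In DMSO the TKO level was 29.2% of wild type, with 27.1% to 31.4% over the 4 pairings of libraries, and the log2 fold change was -1.78 ± 0.09 (SE; edgeR adjusted p = 1.47e-06). In TSA it was 34.3% of wild type (33.0% to 35.6%), a log2 fold change of -1.55 ± 0.09 (edgeR adjusted p = 3.14e-06).

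Dnmt3a (chr12:3806980-3914443, plus strand) gave 185 and 237 normalised CPM in wild type cells with DMSO and 152 and 163 under TSA, against 25.9 and 27.0 with DMSO and 30.0 and 39.1 under TSA in TKO cells. The order of the groups held in each library, with no overlap between any pair of groups, and the wild type DMSO libraries stood farthest apart. The residual level was 12.5% of wild type in DMSO (10.9% to 14.6% over the pairings; log2 fold change -3.00 ± 0.15, edgeR adjusted p = 1.47e-06). In TSA the residual level was 22.0% (18.5% to 25.8%; log2 fold change -2.18 ± 0.15, edgeR adjusted p = 6.18e-06). These TKO levels rest on 371 to 623 counts per library.

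Dnmt3b (chr2:153649449-153687730, plus strand), the most abundant of the 3 targeted genes in wild type cells by TPM, gave 596 and 588 normalised CPM in wild type cells with DMSO and 378 and 343 under TSA. Its TKO levels were 46.2 and 43.7 with DMSO and 61.4 and 76.1 under TSA. No groups overlapped, and the direction of the TSA difference was opposite in the 2 genotypes. The residual level was 7.59% of wild type in DMSO (7.33% to 7.85%; log2 fold change -3.72 ± 0.12, edgeR adjusted p = 5.35e-08). In TSA the residual level was 19.1% (16.3% to 22.2%; log2 fold change -2.39 ± 0.11, edgeR adjusted p = 8.73e-07). The counts are sums over all exons of a gene, so they do not show which exons the residual RNA holds, nor whether it makes protein.

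TSA lowered the RNA of the 3 catalytic genes in wild type cells, where the genes are intact. Of the 5 genes, 3 fell and 1 rose with TSA in wild type cells, and 52.8% of all genes tested were called in that comparison, 4266 higher and 4092 lower (5812 and 2433 with total counts as the only scaling). Dnmt3b fell to 60.9% of its DMSO level (log2 fold change -0.72 ± 0.11, edgeR adjusted p = 0.000292). Dnmt3a fell to 74.6% (-0.42 ± 0.14, edgeR adjusted p = 0.0216) and Dnmt1 to 82.3% (-0.28 ± 0.09, edgeR adjusted p = 0.0181). The calls of Dnmt3a and Dnmt1 were not stable, as with total counts alone Dnmt1 gave -0.08 and Dnmt3a -0.22 (edgeR adjusted p = 0.458 and 0.202), under which the median of all genes stood at 0.22. Without the first wild type DMSO library, the first wild type TSA library or the second wild type TSA library, Dnmt1 gave -0.22, -0.31 and -0.26 with edgeR adjusted p of 0.0820, 0.0556 and 0.119. Without the second wild type DMSO library or the first wild type TSA library, Dnmt3a gave -0.24 and -0.38 with edgeR adjusted p of 0.164 and 0.0975.

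In TKO cells the residual RNA of the de novo genes went the other way. Of the 5 genes, 3 rose with TSA in TKO cells and the other 2 were not called, against 58.7% of all genes called in either direction. The residual RNA of Dnmt3b rose 1.53-fold (95% interval 1.29 to 1.82; edgeR adjusted p = 0.000844). Residual Dnmt3a RNA rose 1.31-fold (1.04 to 1.65; edgeR adjusted p = 0.0438). Dnmt1 had a log2 fold change of -0.05 (95% interval -0.24 to 0.15; edgeR adjusted p = 0.653). The Dnmt3a call was lost without the first TKO DMSO library (0.35, edgeR adjusted p = 0.173), the second TKO DMSO library (0.41, 0.110), the second TKO TSA library (0.18, 0.380) or the first wild type TSA library (0.38, 0.0508), the last through the spread that the groups share in the fit.

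The difference between genotypes in the TSA response was tested as an interaction, in which 1.35% of all genes were called, 0.879% with a higher and 0.468% with a lower TSA effect in TKO cells. Of the 5 genes, Dnmt3b alone was called: its TSA effect in TKO cells minus that in wild type cells was 1.33 ± 0.16 on the log2 scale (edgeR adjusted p = 0.00521). Without the second TKO DMSO library it was 1.29 with an edgeR adjusted p of 0.0505. For Dnmt3a the same difference was 0.81 ± 0.20 and missed the threshold (edgeR adjusted p = 0.0828), but it was called without a filter on low counts (0.78, edgeR adjusted p = 0.0258), by DESeq2 (0.81, adjusted p = 0.0146) and without the first TKO TSA library (0.99, edgeR adjusted p = 0.0388). For Dnmt1 it was 0.23, with a 95% interval from -0.04 to 0.50 (edgeR adjusted p = 0.429).

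**Figure D2:**
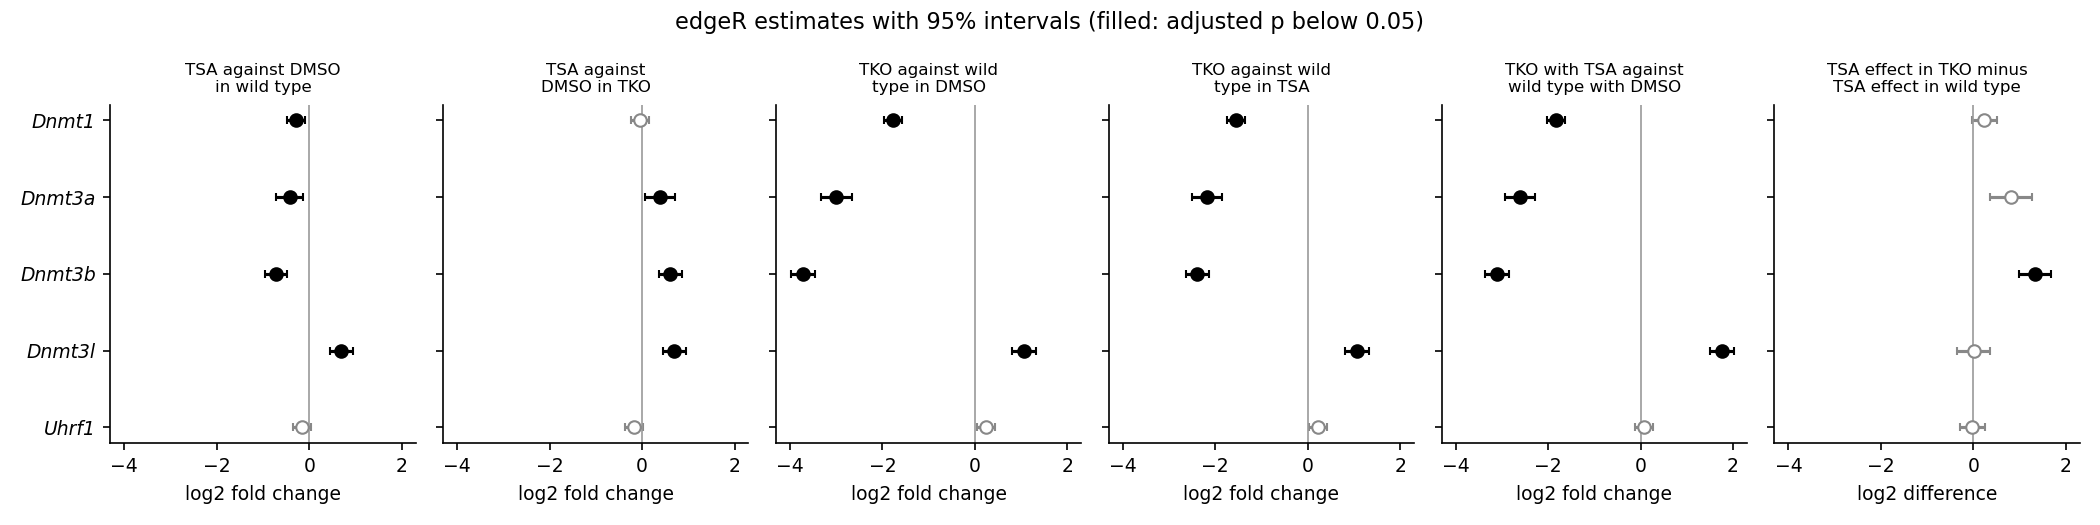
Log2 fold changes (horizontal axes) of the 5 genes in the 6 edgeR contrasts, with 95% intervals; filled points are called and open points are not. Dnmt3l lay right of 0 in the first 5 panels and at 0.00 in the interaction panel, Dnmt3b moved from -0.72 with TSA in wild type cells to 0.61 in TKO cells, and Uhrf1 was open in all 6 panels.

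Dnmt3l, the cofactor that was left intact, rose with loss of the 3 catalytic enzymes and rose again with TSA. The gene lies at chr10:78042287-78063615 on the plus strand and has 3 starts in RefSeq. Mouse Dnmt3l is known to be transcribed from separate starts in stem cells and in the germ line, and counts per gene do not separate them. The 250 bases before each of the first 2 starts are printed because the RNA of this gene differed with both the genotype and the treatment. They are RefSeq windows of GRCm38.p6, plus strand, 5′ to 3′, with CpG sites, the bases that the missing enzymes methylate, in capitals.
Dnmt3l before start 1, chr10:78042037-78042286: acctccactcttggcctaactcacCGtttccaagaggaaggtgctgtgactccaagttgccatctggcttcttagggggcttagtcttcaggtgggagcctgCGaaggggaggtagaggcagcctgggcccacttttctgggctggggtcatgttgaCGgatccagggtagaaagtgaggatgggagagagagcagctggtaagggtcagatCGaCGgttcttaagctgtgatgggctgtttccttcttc
Dnmt3l before start 2, chr10:78049592-78049841: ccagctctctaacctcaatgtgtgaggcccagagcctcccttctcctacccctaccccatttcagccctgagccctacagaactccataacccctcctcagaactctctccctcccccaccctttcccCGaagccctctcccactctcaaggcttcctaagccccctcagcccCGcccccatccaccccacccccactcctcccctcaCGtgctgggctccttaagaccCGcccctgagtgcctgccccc

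The window before start 1 holds 5 CpG sites and the window before start 2 holds 4, and the window before start 3 (chr10:78055085-78055334) holds 3. The median over 32817 RefSeq windows of this length was 6, with quartiles of 2 and 16, so all 3 Dnmt3l windows lay below the median. The window before start 1 overlaps an exon of the gene Aire, which runs on the other strand. Both strands were searched for 6 short motifs: E2F (TTCGCGC, with TTGGCGC as a first variant and TTCCCGC as another), NRF1 (letters GCATGCG), MAX (letters CACGTG), SP1 (letters GGGCGG), GABPA (letters CCGGAAG) and YY1 (letters AAGATGG). The window before start 2 holds 1 match to the MAX motif and 2 to the SP1 motif, which are found in 6.02% and 32.7% of all windows, and the other 2 Dnmt3l windows hold no match to any of the 6.

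Dnmt3l was at 343 and 334 normalised CPM in the wild type libraries with DMSO and 526 and 571 under TSA. Its TKO levels were 747 and 671 with DMSO and 1292 and 1012 under TSA. The 4 groups did not overlap, and each step up (TSA in wild type, TKO in DMSO, TKO in TSA) was seen in both libraries.

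In DMSO, TKO cells held 2.09-fold more Dnmt3l RNA than wild type cells (95% interval 1.75 to 2.51; log2 fold change 1.07 ± 0.12, edgeR adjusted p = 0.000179). A log2 fold change at least as high was seen in 6.31% of all genes tested, and 9.63% of them were called higher. In TSA the genotype difference was 2.10-fold (1.76 to 2.51; edgeR adjusted p = 0.000226), and 18.4% of all genes were called in that comparison, with 10.0% of all genes higher in TKO cells. Few of the 2683 genes that averaged 100 CPM or more, a set with no upper limit, rose as far. Among them 10 were called and at least 2-fold higher in TKO cells in DMSO, and Dnmt3l ranked 9 by fold change. In TSA there were 15 such genes, and Dnmt3l ranked 13.

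TSA raised Dnmt3l 1.62-fold in wild type cells (95% interval 1.36 to 1.94; log2 fold change 0.70 ± 0.12, edgeR adjusted p = 0.000640). In TKO cells it raised Dnmt3l 1.62-fold as well (1.36 to 1.94; log2 fold change 0.70 ± 0.12, edgeR adjusted p = 0.000422). A TSA log2 fold change at least as high was common, in 23.5% of all genes in wild type cells and 25.1% in TKO cells. The interaction was 0.00 on the log2 scale with a 95% interval from -0.36 to 0.37 (edgeR adjusted p = 0.995). That interval still allows the TSA effect in TKO cells to be between 0.781 and 1.29 times that in wild type cells.

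With both changes together, TKO cells in TSA held 3.40-fold more Dnmt3l RNA than wild type cells in DMSO (95% interval 2.84 to 4.08; log2 fold change 1.77 ± 0.12, edgeR adjusted p = 1.38e-06), and the product of the single folds is 3.39. Of the 5 genes, 4 were called in this comparison, where 61.9% of all genes were called, 31.7% higher and 30.2% lower. Every alternative setting and every omission of 1 library that was run, 16 in all, kept the Dnmt3l call in each of these 5 comparisons.

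Markers of other cell types also differed between the groups, among them germ cells and trophoblast, where Dnmt3l RNA is known to occur. Sums of markers here are CPM on library totals, without TMM scaling, whereas values of single genes are normalised CPM. The summed level of 6 markers of oocytes and male germ cells was 56.3 to 76.7 CPM in wild type cells with DMSO and 102 to 159 under TSA, against 215 to 249.7 and 406 to 419 in TKO cells, and Nanos2 was at 0 in 3 of the 4 groups. Dazl, an RNA-binding protein gene of germ cells, made up most of that sum in TKO cells, at 134 and 148 normalised CPM with DMSO and 267 and 259 under TSA. Of the 5 germ cell markers tested, 3 rose in TKO cells in DMSO and 2 rose with TSA in wild type cells, the others not being called. With TSA in TKO cells 2 rose (Dazl and Piwil2) and 3 fell (Ddx4, Zp3 and Gdf9), so most of the markers moved against their sum there. Of all genes tested, 27.0% rose and 25.9% fell with TSA in wild type cells, and 30.8% and 27.9% in TKO cells. These shares were 9.63% and 10.7% in TKO cells in DMSO, and 31.7% and 30.2% for TKO in TSA against wild type in DMSO. The 6 trophoblast markers summed to 223 to 369.5 in wild type cells with DMSO and 561 to 623 under TSA, against 29.9 to 44.6 and 83.3 to 116 in TKO cells. Krt8, a keratin gene of simple epithelia, was the largest part of the trophoblast sum in wild type cells, at 366 and 216 normalised CPM with DMSO, and stood at 27.7 and 44.6 in TKO cells under TSA. Of the 6 trophoblast markers, 5 rose with TSA in wild type cells and 4 in TKO cells, and 4 fell in TKO cells in DMSO. Although the sum was lower in TKO cells under TSA than in wild type cells with DMSO, 4 of the markers (Hand1, Gata3, Cdx2 and Eomes) rose in that comparison and 2 (Krt7 and Krt8) fell. The 6 primitive endoderm markers summed to 98.3 to 105 in wild type cells with DMSO and 90.5 to 106 under TSA, against 335 to 361 and 299.5 to 324 in TKO cells, and 4 of them rose in TKO cells in DMSO. The 8 markers of fibroblasts and mesenchyme summed to 403 to 427, 323 to 348, 316 to 400 and 212 to 273 in the same order, and Dcn was at 0 in TKO TSA. Fn1, the fibronectin gene, made up most of this sum and fell with TSA in both genotypes. Of the 7 fibroblast markers tested, 4 rose and 2 fell with TSA in wild type cells, and 6 rose and 1 fell in TKO cells, so the sum does not stand for most of its members. In bulk RNA, more cells of a type and more RNA per cell cannot be told apart, and the part of these markers in the Dnmt3l difference was not tested.

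Genes beside Dnmt3l were not uniform in their response. Aire, a regulator of self-antigen expression in the thymus, overlaps the start of Dnmt3l on the opposite strand but shares no exon bases with it. Aire was at 4.45 normalised CPM in wild type cells with DMSO and 5.37 under TSA, against 24.1 and 16.1 in TKO cells. It rose in TKO cells in DMSO by a log2 fold change of 2.44 (edgeR adjusted p = 2.98e-05), and with TSA in TKO cells it fell by 0.58 (edgeR adjusted p = 0.0168), opposite to Dnmt3l. Reads outside the exons of both genes do not enter these counts. The outermost Aire exon lies inside the span of Dnmt3l, between its exons. Intron reads of one gene over an exon of the other would thus be counted if the strands were not separated. The strand setting of the counting is not given in the sources used here, and the part of such reads was not tested. Icosl, an immune costimulatory ligand gene 5753 bases beyond the end of Dnmt3l, rose in TKO cells in DMSO by 0.62 (edgeR adjusted p = 0.00362) and with TSA in wild type cells by 0.37 (edgeR adjusted p = 0.0196). Pfkl, a glycolytic enzyme gene 32491 bases away on the other side, fell with TSA in wild type cells by 1.08 (edgeR adjusted p = 3.42e-05).

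The 3 genes whose pattern over the 8 libraries was most like that of Dnmt3l, among 11544 searched, were Pou4f1 (r = 0.996), Ttc39a (0.984) and Ostm1 (0.983). Pou4f1, a POU-domain transcription factor gene, was at 7.80 normalised CPM in wild type cells with DMSO and 13.9 under TSA, against 18.2 and 30.0 in TKO cells. These correlations of log2(CPM + 1) are over libraries that share the same 4 groups and were chosen as the highest, so they describe likeness only.

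Dnmt3l made up a growing share of the methyltransferase RNA. Per exon length it was the most abundant of the 5 genes in all 4 groups, at 413 ± 7.17 TPM in wild type cells with DMSO and 781 ± 54.4 under TSA (SD, n = 2), against 878 ± 56.2 and 1625 ± 257 in TKO cells. Among all 23420 genes it ranked 354, 95, 83 and 28 in these groups. These TPM are not scaled by TMM, so the size of a difference between groups is given by the fold changes above. Dnmt3l held 44.0% of the summed TPM of the 4 Dnmt genes in wild type cells with DMSO and 64.9% under TSA, against 91.8% and 93.8% in TKO cells. The sum itself was 938 ± 10.5 TPM in wild type DMSO and 957 ± 58.3 in TKO DMSO, within the spread of the TKO libraries, while its makeup differed. Under TSA the unscaled sum was higher, at 1203 ± 42.7 TPM in wild type cells and 1730 ± 246 in TKO cells. The TMM factors were higher under TSA as well, at 1.07 and 1.08 against 0.938 and 0.929 in wild type cells. In TKO cells they were 1.04 and 1.06 against 0.941 and 0.955. The size of the rise in the sum thus depends on the scaling. The share of Dnmt3l in TKO cells rises with the lower RNA of the 3 targeted genes as well as with its own level.

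The order below Dnmt3l differed between the genotypes and, in wild type cells, between the treatments. In wild type DMSO it was Dnmt3b (314 TPM), Uhrf1 (264), Dnmt1 (163) and Dnmt3a (48.7). In wild type TSA, Uhrf1 (277) stood above Dnmt3b (223), followed by Dnmt1 (156) and Dnmt3a (42.4). In both TKO groups the order was Uhrf1, Dnmt1, Dnmt3b and Dnmt3a, with Dnmt3a at 6.21 TPM in DMSO and 9.27 in TSA. Neighbours in each order did not overlap between the 2 libraries of a group, which is a description over 2 libraries without a test.

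**Figure D3:**
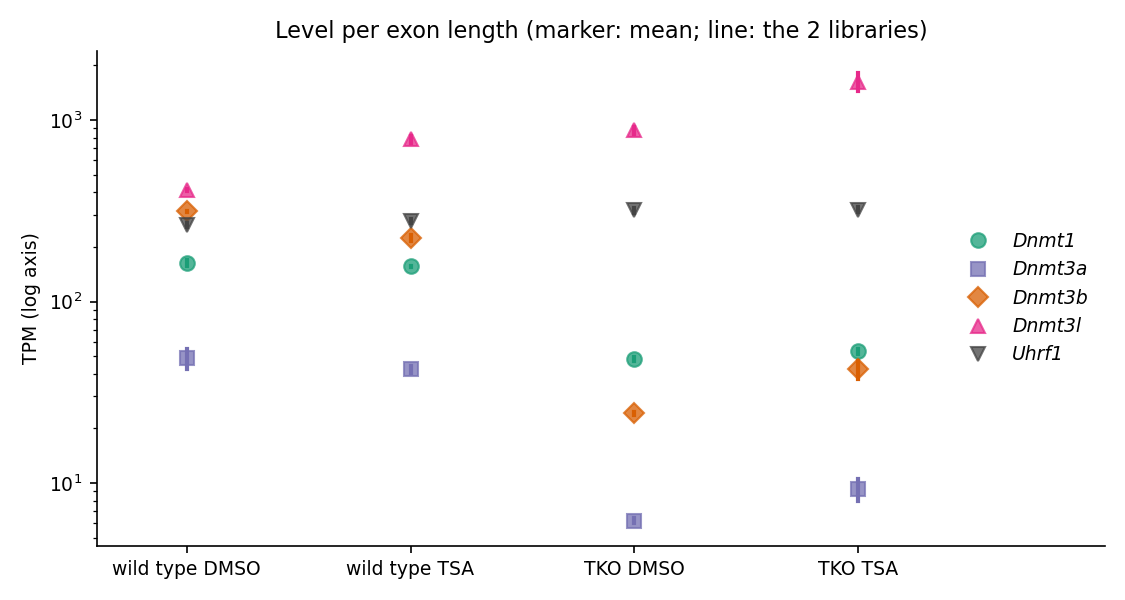
TPM (log axis) of the 5 genes in each group; markers are means of 2 libraries and vertical lines span the 2 libraries. Dnmt3l is the highest in each group, Dnmt3b drops from the second place in wild type DMSO to the fourth in TKO cells, and Uhrf1 lies between 264 and 320.3 in all 4 groups.

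Uhrf1, the other gene left intact, showed small differences and was called in none of the 6 edgeR contrasts, nor by DESeq2, although its unadjusted edgeR p was 0.0178 between TKO and wild type in DMSO and 0.0287 in TSA. It lies at chr17:56303337-56323486 on the plus strand and has 2 starts in RefSeq. The windows before them are printed as a contrast to those of Dnmt3l, from the same RefSeq table, GRCm38.p6, plus strand, 5′ to 3′, CpG sites in capitals.
Uhrf1 before start 1, chr17:56303087-56303336: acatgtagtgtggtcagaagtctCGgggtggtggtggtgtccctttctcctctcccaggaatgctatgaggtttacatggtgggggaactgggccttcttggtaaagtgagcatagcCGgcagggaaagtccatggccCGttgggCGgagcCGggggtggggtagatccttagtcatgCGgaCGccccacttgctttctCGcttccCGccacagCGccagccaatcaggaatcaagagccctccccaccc
Uhrf1 before start 2, chr17:56304063-56304312: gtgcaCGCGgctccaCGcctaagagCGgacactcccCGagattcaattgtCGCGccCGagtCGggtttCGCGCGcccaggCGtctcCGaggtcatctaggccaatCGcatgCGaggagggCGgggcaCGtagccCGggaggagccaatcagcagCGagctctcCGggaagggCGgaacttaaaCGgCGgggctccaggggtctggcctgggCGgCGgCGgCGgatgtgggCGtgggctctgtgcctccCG

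The window before start 2 holds 30 CpG sites, more than 94.1% of all windows do, and the window before start 1 holds 10. Both hold 1 match to the E2F letters, which are found in 6.69% of all windows. The window before start 2 also holds the NRF1 motif as 2 overlapping matches on opposite strands (in 3.01% of windows) and 3 matches to SP1, and the window before start 1 holds 1 match to SP1. A match is a description of the letters and says nothing about binding in these cells.

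Uhrf1 gave 431 and 408 normalised CPM in the wild type libraries with DMSO and 391 and 363 under TSA. Its TKO levels were 516 and 477 with DMSO and 428 and 450 under TSA. Both TKO libraries lay above both wild type libraries within each treatment, and both TSA libraries lay below both DMSO libraries within each genotype, but no contrast passed the threshold.

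The genotype difference in DMSO was 1.18-fold (95% interval 1.04 to 1.35; log2 fold change 0.24 ± 0.09, edgeR adjusted p = 0.0735). In TSA it was 1.17-fold (1.02 to 1.33; log2 fold change 0.22 ± 0.09, edgeR adjusted p = 0.106). A log2 fold change at least as high was seen in 26.2% and 27.7% of all genes. The value in DMSO lay close to the threshold and, among the scalings tried, was called with upper quartile scaling (0.28, edgeR adjusted p = 0.0429) and with total counts as the only scaling (0.26, edgeR adjusted p = 0.0457).

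With TSA, Uhrf1 had a log2 fold change of -0.15 in wild type cells (95% interval -0.35 to 0.04; edgeR adjusted p = 0.160) and of -0.18 in TKO cells (-0.37 to 0.02; edgeR adjusted p = 0.103). In wild type cells this sign depended on the scaling, since with total counts alone it was 0.05. The interaction was -0.02 (95% interval -0.30 to 0.25; edgeR adjusted p = 0.963). TKO cells in TSA and wild type cells in DMSO overlapped in Uhrf1 level (log2 fold change 0.07, 95% interval -0.13 to 0.26, edgeR adjusted p = 0.528), and with total counts alone this was 0.24 (edgeR adjusted p = 0.0294). The intervals thus allow for a genotype difference of up to 1.35-fold in DMSO, whereas the interval of Dnmt3l in the same comparison started at 1.75-fold.

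The genes most like Uhrf1 over the 8 libraries were Rad54l2 (r = 0.987), Lipe (0.987) and E2f1 (0.984), again a description. E2f1, a transcription factor gene of the G1 to S transition, was at 14.5 normalised CPM in wild type cells with DMSO and 11.6 under TSA, against 19.6 and 16.2 in TKO cells. Part of Lipe's exon bases lie in another gene, so its counts are uncertain. For the targeted genes, Tgfb2, a growth factor gene, was among the 3 most alike for Dnmt1 (0.996), Dnmt3a (0.986) and Dnmt3b (0.990), and it was at 16.5 normalised CPM in wild type DMSO and 0.991 in TKO DMSO.

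The proteins that work with Uhrf1 and Dnmt1 at the replication fork were examined as a list of 11 genes, all of them tested. With TSA in wild type cells 1 rose and 7 fell, where 27.0% of all genes rose and 25.9% fell, and their median log2 fold change was -0.40 against 0.01 for all genes. In TKO cells 2 rose and 8 fell with TSA (median -0.49 against 0.04; 30.8% and 27.9% of all genes). Uhrf1 itself, at -0.15 and -0.18, lay above both list medians. Cdca7, a partner of the remodeller Hells, fell by 0.63 in wild type cells (edgeR adjusted p = 0.000177) and by 0.79 in TKO cells (edgeR adjusted p = 2.88e-05). Hells fell by 0.61 in wild type cells (edgeR adjusted p = 0.00202), and Pcna, the replication clamp, by 0.53 (edgeR adjusted p = 0.000694). Pclaf, a clamp-associated factor listed as 2810417H13Rik, fell by 0.80 in wild type cells (edgeR adjusted p = 0.00230).

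Uhrf2, the paralogue of Uhrf1, went up rather than down with TSA. It was at 92.6 and 104 normalised CPM in wild type cells with DMSO and 126 and 145 under TSA, against 97.4 and 101 with DMSO and 154 and 191 under TSA in TKO cells. The TSA libraries lay above the DMSO libraries in both genotypes, with log2 fold changes of 0.46 in wild type (edgeR adjusted p = 0.00779) and 0.80 in TKO cells (edgeR adjusted p = 0.000210).

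Between the genotypes these partners were called at about the share of all genes. Between TKO and wild type in DMSO, 1 of 11 rose and 1 fell, where 9.63% of all genes rose and 10.7% fell. Lig1, the DNA ligase of replication, which carries a methylated lysine that Uhrf1 binds, rose by 0.53 (edgeR adjusted p = 0.00371), and Cdca7 fell by 0.31 (edgeR adjusted p = 0.0269). In TSA, 2 fell, where 8.38% of all genes fell: Cdca7 by 0.46 (edgeR adjusted p = 0.00475) and Cdca7l by 0.44 (edgeR adjusted p = 0.0251). For Cdca7l, 24.6% of exon bases lie in another gene, so its counts are uncertain.

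Since Uhrf1 and Dnmt1 are expressed with DNA replication, 25 genes of S phase were set beside them. With TSA 2 rose and 16 fell in wild type cells (median -0.51), and 3 rose and 15 fell in TKO cells (median -0.61). The shares of all genes that rose and fell were 27.0% and 25.9% in wild type cells and 30.8% and 27.9% in TKO cells. Gins2, part of the replicative helicase, fell by 1.07 in wild type cells (edgeR adjusted p = 0.000124), and Mcm2, another helicase subunit, by 0.84 (edgeR adjusted p = 5.98e-05). E2f2 rose by 1.05 (edgeR adjusted p = 0.000103). Between TKO and wild type in DMSO, 2 rose and 3 fell, with a median of 0.02, where 9.63% of all genes rose and 10.7% fell. The TSA values of Dnmt1 (-0.28) and Uhrf1 (-0.15) in wild type cells lay above the S-phase median, and the part of cell cycle differences in them was not tested.

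Regulators that steer Dnmt3a and Dnmt3b, or protect sites from them, were taken as a list of 15 genes. With TSA 3 rose and 8 fell in wild type cells (median -0.26), and 4 rose and 9 fell in TKO cells (median -0.50). Of all genes, 27.0% rose and 25.9% fell in wild type cells, and 30.8% and 27.9% in TKO cells. Nsd1, which writes the histone H3 lysine 36 dimethyl mark that Dnmt3a reads, fell by 1.45 in wild type cells (edgeR adjusted p = 1.18e-05). Zfp57, which keeps methylation at imprinted loci, fell by 1.05 (edgeR adjusted p = 0.000260). Dppa3, an inhibitor of Uhrf1, rose 2.83-fold in wild type cells (edgeR adjusted p = 0.000482) and by 2.04 on the log2 scale in TKO cells (edgeR adjusted p = 3.88e-05). Its level went from 24.9 ± 5.08 to 70.3 ± 11.5 normalised CPM in wild type cells (SD, n = 2).

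Prdm14, which represses Dnmt3b and Dnmt3l in ES cells, was at 14.1 and 18.6 normalised CPM in wild type cells with DMSO and 6.41 and 5.64 under TSA, against 30.0 and 39.4 with DMSO and 5.21 and 4.08 under TSA in TKO cells. It thus stood highest in TKO DMSO libraries and lowest in TSA libraries. It rose in TKO cells in DMSO by 1.09 (edgeR adjusted p = 0.00264), the same comparison in which Dnmt3l rose. With TSA it fell by 1.44 in wild type cells (edgeR adjusted p = 0.000281), and its log2 fold change in TKO cells was -2.90 (edgeR adjusted p = 3.09e-06). In all, 3 guides and inhibitors rose and 1 fell in TKO cells in DMSO, where 9.63% of all genes rose and 10.7% fell. Among them, Kdm1b, a histone demethylase gene, rose by 0.54 (edgeR adjusted p = 0.00568). Mga, a repressor of germline genes, rose by 0.37 (edgeR adjusted p = 0.0391), while E2f6 fell by 0.41 (edgeR adjusted p = 0.0439).

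**Figure D4:**
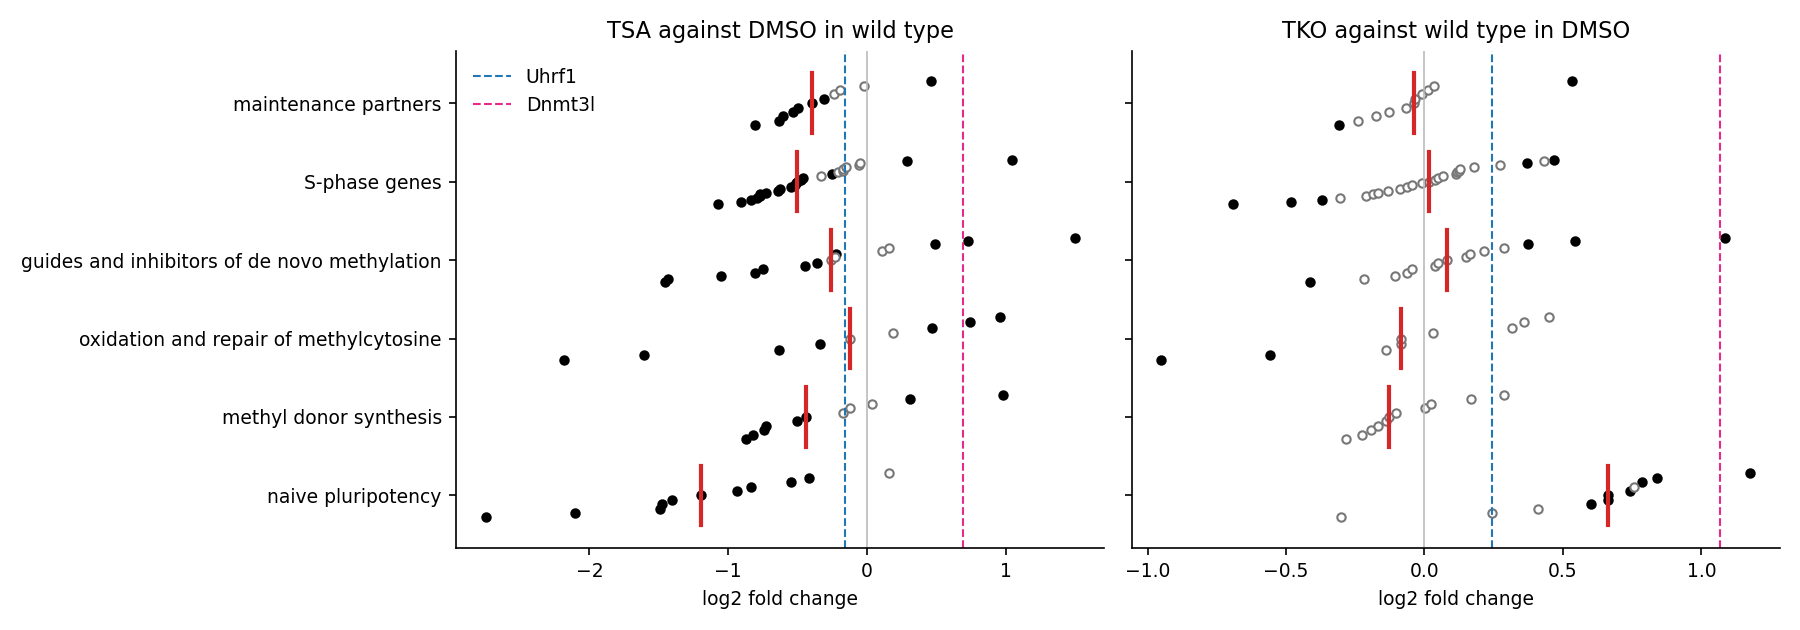
Log2 fold changes (horizontal axes) of the genes of 6 lists with TSA in wild type cells and between TKO and wild type cells in DMSO; filled points are called, open points are not, red bars are list medians, and dashed lines mark Uhrf1 and Dnmt3l. All 6 list medians lie below 0 with TSA under the TMM scaling used, down to -1.20 for naive pluripotency genes, whereas Dnmt3l lies at 0.70. In TKO cells in DMSO only Prdm14 (1.09) and Tbx3 (1.18) exceed the 1.07 of Dnmt3l.

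Removal of methylation is begun by the Tet enzymes, and 9 genes of oxidation and repair of methylcytosine were followed. With TSA in wild type cells 3 rose and 4 fell (median -0.12, which turned to 0.08 with total counts alone and 0.03 with upper quartile scaling). Of all genes, 27.0% rose and 25.9% fell in that comparison. Tet1 fell by 2.18 (edgeR adjusted p = 1.82e-05) and Tet2 by 1.60 (edgeR adjusted p = 2.64e-05), larger differences than those of any methyltransferase in that comparison, while Gadd45a rose by 0.96 (edgeR adjusted p = 0.000127). In TKO cells in DMSO 2 fell, where 10.7% of all genes fell. These were Gadd45a, by 0.95 (edgeR adjusted p = 0.000709), and Gadd45b, by 0.56 (edgeR adjusted p = 0.00829). Tet1 had a log2 fold change of 0.36 there that was not called (edgeR adjusted p = 0.194). Apex1 of this list shares most of its exon bases with another gene in the table, and Gadd45a shares 19.4%, so their counts are uncertain. Tdg was at only 0.571 to 1.03 normalised CPM over the 8 libraries, so its lack of a call in any comparison says little.

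The supply of the methyl donor S-adenosylmethionine was followed in 11 genes. With TSA 2 rose and 6 fell in wild type cells (median -0.44), and 1 rose and 5 fell in TKO cells (median -0.34). Of all genes, 27.0% rose and 25.9% fell in wild type cells, and 30.8% and 27.9% in TKO cells. Mat2a, the catalytic subunit of the enzyme that makes the donor, fell by 0.74 in wild type cells (edgeR adjusted p = 7.77e-05), and its regulatory partner Mat2b fell by 0.87 (edgeR adjusted p = 4.54e-05). Between TKO and wild type cells 0 of the 11 were called in either treatment, where 20.4% of all genes were called in DMSO and 18.4% in TSA. At an unadjusted edgeR p below 0.05 there was 1 lower in DMSO and there were 2 higher in TSA, and DESeq2 also called 0 in both.

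Because Dnmt3b and Dnmt3l change with the pluripotency state, 11 genes of the naive state were set beside them. In TKO cells in DMSO 7 rose and the other 4 were not called (median 0.66 against -0.01 for all genes), and in TSA 6 rose (median 0.44). Of all genes, 9.63% were called higher in DMSO and 10.0% in TSA. Nanog rose by 0.74 in DMSO (edgeR adjusted p = 0.00155) and Tbx3 by 1.18 (edgeR adjusted p = 0.00166). With TSA the same list went down, with 10 of 11 falling in wild type cells (median -1.20) and 9 in TKO cells (median -1.32). The shares of all genes that fell were 25.9% and 27.9%. Fgf4 fell by 2.75 in wild type cells (edgeR adjusted p = 8.23e-06). Dnmt3l therefore rose in the genotype comparison together with the naive list and rose with TSA while that list fell, and the part of the pluripotency state in either difference was not tested.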

How the data were processed

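RNA was measured in 8 libraries, 2 for each combination of genotype (wild type or TKO) and treatment (DMSO or TSA), grouped by the genotype and treatment in the labels. The other 118 samples of the series were not analysed here. Per the labels' protocols, ribosomal RNA was removed from DNase-treated total RNA before a directional library kit and paired-end sequencing. Raw counts of reads for each gene were deposited by the authors, with exon coordinates and a summed exon length in bases for each gene. The submitters' processing notes name TopHat2 2.0.13, featureCounts 1.4.5-p1, edgeR 3.22.3 and the build mm10. The strand setting, the annotation and the treatment of reads with several matches are not given in the sources used here, so counts of genes with near-identical copies, among them Pcna, Nanog and Dppa3, are uncertain. Smaller parts of exon bases lie in another gene for Gins2 (11.4%), Kdm1b (10.3%), Mat2a (7.60%) and Lig1 (3.30%).

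The count test was edgeR 4.0.16's quasi-likelihood test, run in R 4.3.3. After filterByExpr, 15822 of 23420 genes remained; library sizes were adjusted by TMM factors (0.929 to 1.08), and a single model over the 8 libraries had 4 group means, 4 residual degrees of freedom and a common biological coefficient of variation of 10.3%. The tests of the 6 contrasts were two-sided, with Benjamini-Hochberg adjustment over all genes tested, and a gene was called below 0.05. SEs were derived from the F statistic and are approximate. An exact permutation test of 2 against 2 libraries cannot go below a p of 0.333. TPM was computed from the counts and the deposited exon lengths. The pipeline was tested on simulated counts. Between libraries of a group, counts differed by more than sampling noise (chi-square per degree of freedom 5.28 to 12.2), so each library counted as 1 replicate.

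The 5 genes and all lists were chosen with earlier results of these data known. Of each list at most 4 called genes without overlap between groups are named per comparison, by size of change, with the 5 genes themselves in every comparison, their nearest tested neighbours and the 3 genes most alike by Pearson correlation of log2(CPM + 1) among tested genes with at least 5 CPM on average. Further list genes (Prdm14 in all comparisons, Tet1 in TKO cells, Apex1) are given for context after their values were seen. Promoter windows are RefSeq sequences of GRCm38.p6, matched by symbol, which was found for all 5 genes. The homologue Dnmt3c was not analysed here. Alternatives were RLE (DESeq2's size factors), upper quartile and total count scaling, other filters, DESeq2 1.42.0, only the groups compared, the replicate number as a block, TPM scaled by TMM, and the omission of each library.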

Additional observations from a re-analysis of the deposited data

Results flagged for a closer look

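Among the 5 genes and the listed genes named, 4 had a TSA effect called as different between the genotypes by edgeR's test of the interaction. Of all genes tested, 1.35% were called there. Listed genes were named because they had been called in some comparison, so the count of 4 cannot be set against that share. Dnmt3b, a de novo methyltransferase gene targeted in the TKO cells, had a difference of 1.33 on the log2 scale (edgeR adjusted p = 0.00521), from a TSA effect of -0.72 in wild type cells and 0.61 on the residual RNA of TKO cells. Sox3, a transcription factor gene of neural progenitors, had a difference of 2.70 (edgeR adjusted p = 0.0262), with TSA effects of -1.05 in wild type and 1.65 in TKO cells. The level of Sox3 was low, at 1.10 and 1.70 normalised CPM in wild type cells under TSA. Zic2, a zinc finger factor of the formative and primed state, had a difference of 1.53 (edgeR adjusted p = 0.0182), with TSA effects of -3.95 in wild type and -2.42 in TKO cells. Prdm14, a repressor of de novo methylation, had a difference of -1.47 (edgeR adjusted p = 0.0445), with TSA effects of -1.44 in wild type and -2.90 in TKO cells.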

How the results depend on the processing

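Of the 5 genes, Dnmt3l kept its call and direction in all 5 comparisons other than the interaction under every alternative run, as did Dnmt3b, and Dnmt1 and Dnmt3a did so in the 3 comparisons of TKO with wild type cells. With upper quartile scaling, Dnmt1 with TSA in wild type cells gave -0.13 (edgeR adjusted p = 0.207), Dnmt3a there -0.28 (0.126) and Uhrf1 between TKO and wild type in DMSO 0.28 (0.0429). With total counts alone, Dnmt1 with TSA in wild type cells gave -0.077 (edgeR adjusted p = 0.458), Dnmt3a there -0.22 (0.202), Uhrf1 between TKO and wild type in DMSO 0.26 (0.0457), and Uhrf1 between TKO in TSA and wild type in DMSO gave 0.24 (0.0294). Under these scalings the median of all genes with TSA moved from 0.01 to 0.16 and 0.22 in wild type cells and from 0.04 to 0.11 and 0.19 in TKO cells. The split of called genes moved with it: with TSA in TKO cells from 4872 higher and 4412 lower to 5908 and 3267 with total counts, for TKO in TSA against wild type in DMSO from 5015 and 4778 to 6064 and 3542, and in the interaction from 139 and 74 to 96 and 85 with upper quartile scaling. The interaction called 213 genes, against 488 without a filter, 394 with DESeq2 and 633 with the replicate block, and Dnmt3a in it gave 0.78 (0.0258), 0.81 (0.0146) and 0.79 (0.0123).

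The replicate numbers are shared between groups, but the labels do not say that they pair libraries, and the correlation of same-numbered deviations ran from 0.0156 to 0.430 over the 6 pairs of groups. With the replicate block, Uhrf1 between TKO and wild type in DMSO gave 0.24 (edgeR adjusted p = 0.0463), and no other call of the 5 genes changed besides that of Dnmt3a in the interaction.

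When each library was left out in turn, the lone sample of its group was assumed to vary like the other groups. Genes called ran from 1458 to 3330 between TKO and wild type in DMSO, from 941 to 3443 in TSA and from 10 to 410 in the interaction. Dnmt1 with TSA in wild type cells ran from -0.34 to -0.22, Dnmt3a from -0.59 to -0.24, and Dnmt3a with TSA in TKO cells from 0.18 to 0.56. In the interaction, Dnmt3b ran from 1.17 to 1.48 and Dnmt3a from 0.61 to 0.99.

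TPM divided by the TMM factor gave, for wild type cells with DMSO, the same under TSA, and TKO cells with DMSO, 174, 145 and 50.8 for Dnmt1 (50.6 in TKO cells under TSA), 336, 208 and 25.6 for Dnmt3b, and 282, 257 and 335 for Uhrf1. Dnmt3a gave 39.4 in wild type cells under TSA and 6.55 in TKO cells with DMSO, and Dnmt3l gave 442 and 726 in wild type cells with DMSO and under TSA. Among 191 pairs of another named gene and a comparison, 2859 of 3042 alternative values kept the call, 174 lost it, 9 gained it and 0 reversed. The cause of these differences was not tested. With 2 libraries a group, differences as small as those of Uhrf1 lie at the limit of what these data resolve.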

Other observations

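Trdmt1, a homologue of the DNA methyltransferases that methylates transfer RNA, rose with TSA by 0.87 on the log2 scale in wild type cells (edgeR adjusted p = 0.000382) and by 0.87 in TKO cells (edgeR adjusted p = 0.000263). Its level was 16.2 ± 1.72 normalised CPM (SD, n = 2) in wild type cells with DMSO and 29.6 ± 2.32 under TSA, against 15.6 ± 0.42 and 28.4 ± 0.30 in TKO cells.

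Of 10 genes of the formative and primed state, in which Dnmt3b is known to be high, 1 rose and 5 fell with TSA in wild type cells (median -0.62), and 2 rose and 5 fell in TKO cells (median -0.24). Among all genes, 27.0% rose and 25.9% fell in wild type cells, and 30.8% and 27.9% in TKO cells. Between TKO and wild type cells in DMSO 3 of the 10 fell, where 10.7% of all genes fell. They were Sall2 by 0.93 (edgeR adjusted p = 0.0153), Sox4 by 0.87 (edgeR adjusted p = 0.0127) and Pou3f1 by 0.63 (edgeR adjusted p = 0.0238).

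Of the nearest tested neighbours of Uhrf1, Kdm4b, a histone demethylase gene 2564 bases beyond it, fell with TSA by 1.47 in wild type cells (edgeR adjusted p = 1.91e-05) and had a log2 fold change of -1.39 in TKO cells (edgeR adjusted p = 1.03e-05). Plin3, a lipid droplet coat gene 12826 bases away on the other side, fell by 0.27 in wild type cells (edgeR adjusted p = 0.0377) and was not called in TKO cells (-0.25, edgeR adjusted p = 0.0524). Uhrf1 itself had -0.15 and -0.18, and the differences between these genes were not tested. Beside Dnmt3b, Commd7 fell in TKO cells in DMSO by 0.55 (edgeR adjusted p = 0.0484).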
